A study of Mus musculus with 14 samples.

Results

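Expression of 10 genes of the Notch pathway was examined in 4T1 mouse mammary tumor cells with knockdown of Cnot7 or over-expression of CNOT7. The genes were the receptors Notch1, Notch2 and Notch3, the ligands Jag1 and Jag2, the glycosyltransferases Lfng, Rfng and Eogt, the nuclear coactivator Maml1 and the target gene Hes1. They were 10 of the 19938 genes that the arrays measured with a probe set naming exactly 1 symbol, and each had 1 such probe set. The set was chosen by measured values, the log2 levels of these same samples, in which Maml1, Rfng and Eogt differed between groups. The group differences of those 3 genes are therefore given as a description and without a test.

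Notch is a receptor that signals between neighboring cells. A Delta or Jagged ligand on one cell pulls on the receptor of the next, the proteases ADAM10 and gamma-secretase cut it, and the released intracellular domain enters the nucleus, where it joins the DNA-binding protein RBPJ and a Mastermind coactivator such as MAML1 to turn on targets such as Hes1. Sugars that Fringe enzymes (Lfng, Mfng, Rfng) and EOGT attach to the extracellular repeats of the receptor alter which ligands it answers to, and the pathway takes part in the choice between luminal and basal fates in the mammary gland.

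The study asked which transcripts follow the level of Cnot7, which encodes an enzyme of the CCR4-NOT complex that shortens the poly(A) tails of mRNAs. RNA from 14 samples of 4T1, a line from a BALB/c mammary tumor, was hybridized to Affymetrix mouse gene arrays, one color each. All groups had been transduced with lentivirus. The 3 vector control and the 3 CNOT7 over-expression samples were selected with blasticidin, and the over-expressed cDNA was human, FLAG-tagged and driven by the murine Pol2 promoter. The 2 sh74, 3 sh75 and 3 shScramble samples carried hairpins and were selected with puromycin. Over-expression was compared with vector control, and each hairpin with shScramble. The samples were called biological replicates but separate cultures or clones were not described, so a p-value covers no more than the spread among the 14 samples. Replicates 2 and 3 of over-expression and of sh75 also shared a number in their titles, which the labels do not explain. All levels below are log2 values from RMA, errors of group means are standard deviations (SD), errors of differences are standard errors (SE) from limma, and a call is an adjusted p under 0.05 after Benjamini-Hochberg adjustment over all probe sets tested.

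Cnot7 itself was 8.03 ± 0.50 (SD, n = 3) with sh75 and 9.02 ± 0.44 (n = 2) with sh74, beside 10.32 ± 0.12 (n = 3) with shScramble. Limma called the difference with sh75 (-2.29, SE 0.26, adjusted p = 0.00911) but not that with sh74 (-1.31, SE 0.29, adjusted p = 0.279). The sh75 call was lost in the fits without shScramble replicate 1 (adjusted p = 0.0546) or replicate 2 (adjusted p = 0.0545), in a fit of those groups alone (adjusted p = 0.0999) and by the methods' t-test (adjusted p = 0.579). The difference between over-expressing and vector control cells was 0.00 (SE 0.26), and whether the probes read the human cDNA was not tested. Array medians lay between 6.31 and 6.38. Olfactory receptor probe sets, which give the background, had a 90th percentile of 4.90, and the lowest value of any of the 10 Notch genes in any sample was 6.10. The 6 epithelial markers of the line (Epcam, Cdh1, Krt8, Krt18, Esrp1 and Cldn7) averaged 8.58 to 11.16 over the samples. Markers of other cells had a mean above that background limit for 2 of 4 immune, 2 of 4 endothelial, 2 of 4 fibroblast and 3 of 3 adipocyte genes. Ptprc (4.49 to 4.73), Dcn (3.68 to 3.96) and Lum (3.22 to 3.54) were below it in all samples, the endothelial genes ran from 4.30 to 5.32, and Cd3e (5.68 to 6.04), Plin1 (5.47 to 5.82) and Cidec (5.61 to 6.03) were above it. Cd68 (6.77 to 9.01) and Pdgfra (6.83 to 9.25), markers of macrophages and fibroblasts, were highest. In bulk RNA, fewer cells that express a gene and less RNA per cell cannot be told apart.

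**Figure D1:**
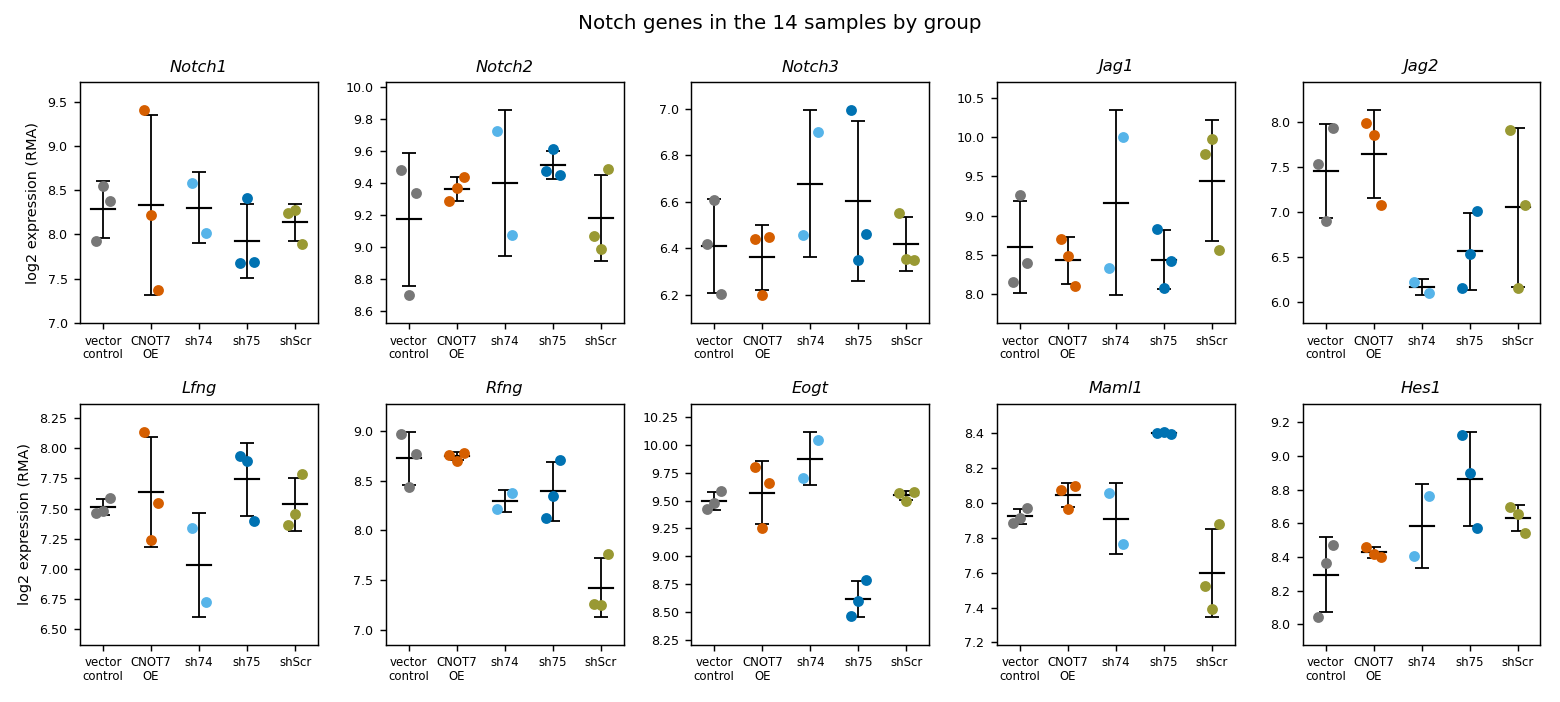
Log2 expression (RMA) of the 10 Notch genes in the 14 samples, by treatment group; each point is a sample, the black bars give mean ± SD, and each panel has its own vertical axis. Rfng is lowest in the 3 shScramble samples (7.25 to 7.76), Eogt is lowest in the 3 sh75 samples (8.46 to 8.79) and Maml1 is highest in the 3 sh75 samples (8.40 to 8.41), whereas the other genes overlap between most groups.

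Each receptor overlapped with its control in every treated group. Notch1 read 7.93, 8.55 and 8.38 in vector control cells, 9.41, 8.22 and 7.37 in over-expressing cells, 8.59 and 8.02 with sh74, 7.68, 8.41 and 7.69 with sh75, and 8.24, 8.27 and 7.89 with shScramble. The highest and the lowest sample of the series were both over-expressing, and 10.4% of the variation of Notch1 lay between groups, where the median gene with a mean of at least 6 had 34.1%. Notch2 had group means from 9.17 ± 0.42 (SD, n = 3) in vector control to 9.51 ± 0.08 (n = 3) with sh75. Single values of Notch2 ran from 8.70 to 9.72, and the over-expression samples (9.29 to 9.44) lay just below those of sh75 (9.45 to 9.61). Notch3 ran from 6.199 to 6.99. Its group means lay between 6.36 ± 0.14 in over-expressing and 6.68 ± 0.31 (n = 2) in sh74 cells. The samples of those groups lay just apart (up to 6.45 and from 6.46). Over-expressing and hairpin cells differ in vector and drug selection and were not compared in a fit. The share of all probe sets lying apart between them was not counted, so nothing is read from these narrow gaps.

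The differences of the receptors from their controls were small beside their errors. With sh75, Notch1 differed from shScramble by -0.21 (SE 0.42, adjusted p = 0.936), with a 95% interval from -1.13 to 0.71. The same difference was 0.33 for Notch2 (SE 0.21, adjusted p = 0.736) and 0.18 for Notch3 (SE 0.17, adjusted p = 0.833). With sh74 the 3 receptors lay 0.17, 0.22 and 0.26 above shScramble, at adjusted p from 0.849 to 0.972. The Notch2 difference with sh74 rested on a single sample, being 0.54 without sh74 replicate 2 and -0.10 without sh74 replicate 1. Notch4, the fourth receptor, which is best known from endothelial cells, stayed between 6.27 and 6.58 in all samples.

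Jag1 and Jag2, which encode ligands of the Jagged class, spread most widely among the 10 genes, with SDs over the 14 samples of 0.69 and 0.72, where the median gene with a mean of at least 6 had 0.208. Jag1 was 8.15, 9.26 and 8.39 in vector control cells, 8.71, 8.49 and 8.11 in over-expressing cells, 8.34 and 10.00 with sh74, 8.83, 8.08 and 8.42 with sh75, and 9.79, 9.98 and 8.56 with shScramble. The 3 highest values belonged to 1 sh74 and 2 shScramble samples, and every group overlapped with shScramble. Jag1 lay below shScramble with sh75 (difference -1.003, SE 0.47, adjusted p = 0.622). The difference with sh74 was -0.28 (SE 0.53, adjusted p = 0.955), and it turned to 0.55 without sh74 replicate 1 and to -1.11 without sh74 replicate 2.

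Jag2 was 7.54, 6.89 and 7.93 in vector control cells, 7.99, 7.85 and 7.08 in over-expressing cells, 6.22 and 6.10 with sh74, 6.15, 6.53 and 7.004 with sh75, and 7.91, 6.16 and 7.08 with shScramble. The hairpin samples all lay at or below 7.004, but 1 shScramble sample did too, so neither hairpin group was apart from its control. The difference from shScramble was -0.89 with sh74 (SE 0.47, adjusted p = 0.741) and -0.49 with sh75 (SE 0.42, adjusted p = 0.82). Among the other ligands, Dll1 was highest with sh74 (8.24 ± 0.21, n = 2, against 7.34 ± 0.67, n = 3, with shScramble, adjusted p = 0.687), and Dll4 ranged from 7.41 to 10.44, with each treated group overlapping its control. Dll3 lay at 4.98 to 5.34, close to the background limit. Dlk1, a non-canonical ligand, stayed between 6.42 and 6.86, and Dlk2, also non-canonical, between 6.94 and 8.10.

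Within the groups Jag1 went with the mean of the 6 epithelial markers. That mean varied mainly through Esrp1 (5.21 to 11.01), Cldn7 (5.78 to 10.92) and Epcam (5.98 to 10.01). Krt8 (11.13 to 11.87) and Krt18 (11.73 to 12.30) varied little. Both keratins were lowest of the series in over-expression replicate 1, the sample with the highest epithelial mean of its group. In shScramble cells, replicates 1 to 3 had Jag1 at 9.79, 9.98 and 8.56 and a mean of the epithelial markers of 10.98, 10.98 and 9.02. In sh74 cells Jag1 was 8.34 and 10.00 beside epithelial means of 8.58 and 11.16. In each of the 5 groups the sample with the highest epithelial mean also had the highest Jag1 value, as was the case for 437 of the 19938 genes (2.19%). Notch2 and Jag2 were lowest in that sample in 4 of 5 groups, and 2103 genes (10.5%) were lowest there in at least 4. In shScramble that sample was replicate 2, nearly tied with replicate 1 (epithelial means 10.980 and 10.977), so these orderings rest there on a near tie. In replicates 2 and 1, Jag1 was 9.98 and 9.79, Notch2 8.99 and 9.07, and Jag2 6.16 and 7.91, the lowest and highest Jag2 of the group. Jag2 was highest, at 7.99, in the over-expression sample with the highest epithelial mean. The ordering by epithelial mean was looked at after the values were seen and is a description. Rfng was lowest in the sample with the highest epithelial mean in 3 of 5 groups and highest there in 1, and Maml1 was lowest there in 2. In shScramble, Rfng (7.76) and Maml1 (7.88) were highest in replicate 3, which had the lowest epithelial mean. The part of the spread with the epithelial mean in the group differences of the 10 genes was not tested.

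**Figure D2:**
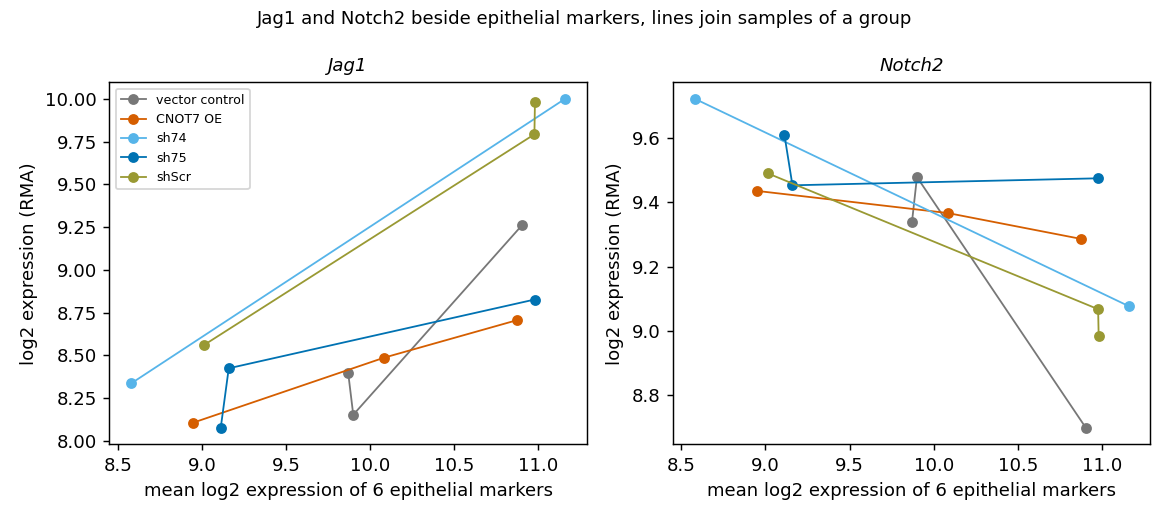
Log2 expression (RMA) of Jag1 (left) and Notch2 (right) against the mean log2 expression of 6 epithelial markers; points are the 14 samples and lines join samples of the same group. Jag1 is highest in the sample with the highest marker mean in all 5 groups. Notch2 is lowest in that sample in 4 of the 5, sh75 being the exception. In shScramble, replicates 1 and 2 nearly tie for that mean (10.977 and 10.980).

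Among the glycosyltransferases, Rfng was lower with shScramble than in all other samples. Rfng, one of the Fringes, which extend O-linked fucose on the receptor, was 7.26, 7.25 and 7.76 with shScramble. It was 8.22 and 8.38 with sh74, 8.12, 8.35 and 8.71 with sh75, 8.97, 8.44 and 8.77 in vector control cells, and 8.76, 8.70 and 8.78 in over-expressing cells. No sample of another group came down to the shScramble range, and the sh74 samples lay below those of vector control and over-expressing cells, while the other pairs among the 4 groups overlapped. In increasing order the means were 7.42 ± 0.29 for shScramble (n = 3), 8.30 ± 0.11 for sh74 (n = 2), 8.39 ± 0.30 for sh75 (n = 3), 8.73 ± 0.27 for vector control (n = 3) and 8.75 ± 0.04 for over-expression (n = 3). Rfng lay 0.88 (SE 0.20) above shScramble with sh74, 0.97 (SE 0.18) above it with sh75 and 1.30 (SE 0.18) above it in vector control cells. Those differences share the 3 shScramble samples and are not separate evidence. The hairpins differed from each other by -0.09 (SE 0.20), and over-expressing from vector control cells by 0.02 (SE 0.18).

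Eogt, which encodes an O-linked N-acetylglucosamine transferase of the extracellular repeats, was lower with sh75 alone. Its values were 8.46, 8.60 and 8.79 with sh75, against 9.57, 9.50 and 9.57 with shScramble and 9.71 and 10.05 with sh74. In vector control cells it was 9.43, 9.48 and 9.59, and in over-expressing cells 9.80, 9.25 and 9.66. The sh75 samples lay apart from all others, and the sh74 samples lay above shScramble. The difference between sh75 and shScramble was -0.93 (SE 0.14), or 52.4% of the shScramble level. With sh74 it was 0.33 (SE 0.15), or 126%, so the hairpins stood on opposite sides of their shared control and 1.26 (SE 0.15) apart. Over-expressing cells were 0.07 (SE 0.14) above vector control.

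Lfng, the Fringe that acts in somite segmentation, was 7.33 and 6.73 with sh74, below the values of 7.36, 7.45 and 7.78 with shScramble and of 7.94, 7.89 and 7.39 with sh75. It was 7.46, 7.48 and 7.59 in vector control cells and 8.14, 7.24 and 7.55 in over-expressing cells. The gap between the nearest sh74 and shScramble samples, 7.33 and 7.36, was narrow, and neither the difference from shScramble (-0.50, SE 0.26, adjusted p = 0.731) nor that from sh75 (-0.71, SE 0.26, adjusted p = 0.439) was called. Mfng, the other Fringe, stayed between 5.56 and 5.83. Of the remaining enzymes of this group, Gxylt1, a xylosyltransferase, was 7.52 ± 0.03 with sh75 against 7.90 ± 0.14 with shScramble (-0.38, SE 0.10, adjusted p = 0.322). Poglut3, a protein O-glucosyltransferase, lay 0.58 above shScramble with sh75 (SE 0.22, adjusted p = 0.512), and Xxylt1, another xylosyltransferase, lay 0.68 lower with sh74 than with sh75 (difference -0.68, SE 0.21, adjusted p = 0.329).

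Maml1, which encodes the coactivator that RBPJ and the Notch intracellular domain recruit, was higher with sh75 than in all other samples. It was 8.40, 8.41 and 8.40 with sh75 and 8.06 and 7.76 with sh74. It was 7.53, 7.39 and 7.88 with shScramble, 7.88, 7.91 and 7.97 in vector control cells, and 8.08, 7.97 and 8.10 in over-expressing cells. The 3 sh75 samples agreed closely, the nearest other sample was over-expressing, and 2 of the 3 shScramble samples were the lowest of the series. From lowest to highest the means were 7.60 ± 0.25 for shScramble (n = 3), 7.91 ± 0.21 for sh74 (n = 2), 7.92 ± 0.05 for vector control (n = 3), 8.05 ± 0.07 for over-expression (n = 3) and 8.40 for sh75 (n = 3). The sh74, vector control and over-expression ranges met or overlapped.

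The difference in Maml1 between sh75 and shScramble was 0.80 (SE 0.11), or 175% of the shScramble level, and leaving out 1 sample at a time kept it between 0.70 and 0.94. With sh74 it was 0.31 (SE 0.13), moving to 0.17 without sh74 replicate 1 and 0.46 without sh74 replicate 2. Vector control cells lay 0.32 (SE 0.11) above shScramble, and sh74 lay below sh75 by 0.49 (difference -0.49, SE 0.13). The differences from shScramble again share those samples.

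**Figure D3:**
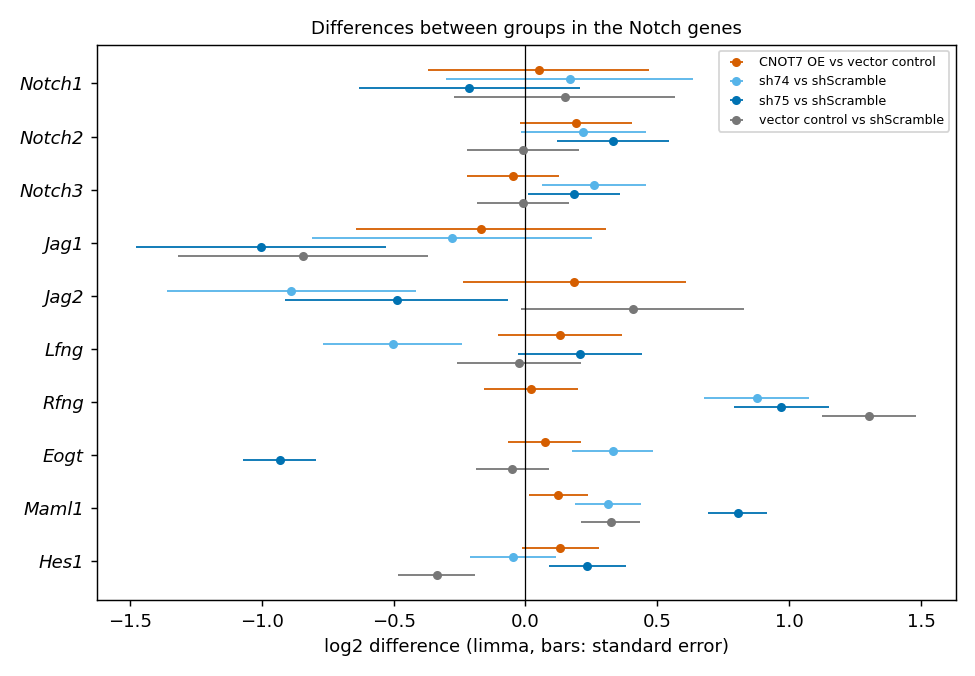
Log2 differences of the 10 Notch genes in 4 comparisons; points are limma estimates and bars are standard errors. Rfng lies above shScramble by 0.88 with sh74, 0.97 with sh75 and 1.30 in vector control cells, whereas Eogt (-0.93) and Maml1 (0.80) stand away from zero mainly with sh75; the over-expression differences lie between -0.17 and 0.19.

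Other genes of the nuclear complex differed as well. Kat2b, which encodes the histone acetyltransferase PCAF that binds Mastermind coactivators, is not among the 10 genes and was tested, though the pathway list was drawn up with earlier results of these data known. It was 6.91, 7.14 and 6.84 with sh75, against 7.63, 7.99 and 7.95 with shScramble, 8.04 and 7.92 with sh74, and 7.75 to 7.93 in vector control and over-expressing cells. All 3 sh75 samples lay below every other sample. Kat2b fell by 0.89 with sh75 relative to shScramble (SE 0.10, adjusted p = 0.0103), to 53.9% of the shScramble level. The call was lost without sh75 replicate 1 (adjusted p = 0.0703), without shScramble replicate 2 (adjusted p = 0.0618) or without shScramble replicate 3 (adjusted p = 0.053), and also in a fit of those groups alone (adjusted p = 0.202) and by the methods' t-test (adjusted p = 0.579). The hairpins differed by 1.01 (SE 0.12, adjusted p = 0.00772), which was no longer called without sh74 replicate 1 (0.95, adjusted p = 0.0789), in those groups alone (adjusted p = 0.271) or by the methods' t-test (adjusted p = 0.608).

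Maml2, a paralog of Maml1, was 8.39 and 8.40 with sh74 and 7.31, 7.61 and 7.37 with sh75. The values were 7.74, 7.95 and 7.62 with shScramble, and 7.36 to 7.91 in the remaining groups, so that the sh74 samples lay above all others. The difference between the hairpins was 0.97 (SE 0.16, adjusted p = 0.0449), and a second probe set of Maml2 gave 1.098. That call was lost in each of the 5 fits that left out 1 hairpin sample (adjusted p from 0.0654 without sh75 replicate 2 to 0.191 without sh74 replicate 1) and in 5 other settings besides the replicate block (adjusted p from 0.0544 with all probe sets to 0.608 by the methods' t-test). Against shScramble Maml2 was not called, at 0.63 with sh74 (SE 0.16, adjusted p = 0.351) and -0.34 with sh75 (SE 0.14, adjusted p = 0.566). Maml3, the remaining Mastermind gene, was 7.59 ± 0.37 with sh75 and 6.98 ± 0.34 with shScramble (0.61, SE 0.24, adjusted p = 0.524). Among these coactivators, therefore, Maml1 was highest with sh75, Maml2 with sh74, and Kat2b lowest with sh75. The DNA-binding partner Rbpj stayed between 10.46 and 10.96.

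**Figure D4:**
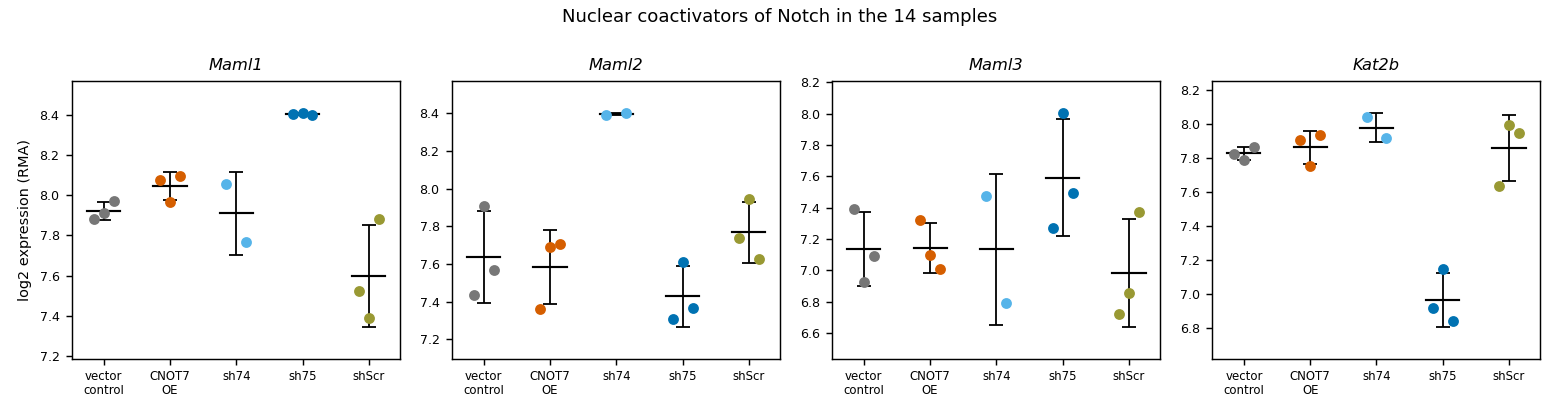
Log2 expression (RMA) of 4 coactivator genes of the Notch nuclear complex in the 14 samples, by treatment group; each point is a sample, the black bars give mean ± SD, and each panel has its own vertical axis. The sh75 samples are highest for Maml1 (8.40 to 8.41) and lowest for Kat2b (6.84 to 7.14), and the 2 sh74 samples are highest for Maml2 (8.39 and 8.40).

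Hes1, a transcriptional repressor and the best known Notch target, was 9.12, 8.90 and 8.57 with sh75, 8.69, 8.65 and 8.54 with shScramble, 8.41 and 8.76 with sh74, 8.05, 8.37 and 8.47 in vector control cells, and 8.46, 8.42 and 8.40 in over-expressing cells. The highest values were those of 2 sh75 samples, and the vector control and over-expression samples all lay below shScramble. The differences from shScramble were 0.23 with sh75 (SE 0.15, adjusted p = 0.728), -0.05 with sh74 (SE 0.16, adjusted p = 0.976) and -0.34 in vector control cells (SE 0.15, adjusted p = 1.0). Hey1, a related target, was 5.99, 7.16 and 6.87 with sh75 and 5.99 to 6.10 with shScramble, overlapping at its lowest sample (0.61, SE 0.24, adjusted p = 0.523). Hes5 (6.96 to 7.31), Hes7 (7.79 to 8.01), Heyl (5.72 to 5.94) and Hey2 (4.63 to 5.69) had no called difference. Among wider targets, Myc lay 0.61 below shScramble with sh75 (difference -0.61, SE 0.25, adjusted p = 0.567), and Ccnd1 was 0.37 higher with sh74 than with sh75 (SE 0.15, adjusted p = 0.478).

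The processing enzymes and corepressors gave no call. Furin, the convertase that makes the first cut of the receptor, was 10.70, 10.72 and 10.66 with sh75 and 10.41, 10.16 and 10.26 with shScramble (0.42, SE 0.07, adjusted p = 0.0554), with no overlap between the groups. Adam10, the protease that makes the ligand-dependent cut, was 9.18, 9.85 and 9.55 with sh75 and 10.10, 10.15 and 10.44 with shScramble, also without overlap (-0.71, SE 0.19, adjusted p = 0.322). Ncstn, a subunit of gamma-secretase, lay 0.39 above shScramble with sh75 (SE 0.15, adjusted p = 0.52). The Groucho corepressor Tle1 was 7.77, 8.43 and 7.93 with sh75 and 7.42, 7.13 and 7.32 with shScramble (0.76, SE 0.18, adjusted p = 0.263). Ctbp1, another corepressor, was 11.39 ± 0.06 with sh75 and 11.08 ± 0.08 with shScramble (0.31, SE 0.10, adjusted p = 0.438), and the deacetylase gene Hdac2 was 10.42 ± 0.10 and 10.18 ± 0.11 (0.24, SE 0.07, adjusted p = 0.364). Of the ubiquitin ligases, Dtx3 lay 0.44 above shScramble with sh75 (SE 0.19, adjusted p = 0.589), while Dtx2 (-0.36, SE 0.14, adjusted p = 0.478) and Mib2 (-0.24, SE 0.09, adjusted p = 0.427) lay lower with sh74 than with sh75.

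Counted over a list of 72 measured Notch pathway genes, calls were few. The comparison of sh75 with shScramble called 2 of the 10 genes, Maml1 and Eogt, from which nothing is read because their group differences chose them, and 1 of the 62 other pathway genes, Kat2b. Over all 21789 probe sets, 20 were called (0.0918%). The median difference was 0.09 over the 62 other genes, beside -0.000541 over all probe sets. Over the 10 genes it was 0.20, from which nothing is read because the values of these samples chose them. At an unadjusted p under 0.05 stood 17 of the 62 other genes (27.4%), beside 8.26% of all probe sets. Most of the 62 had a mean of at least 6, as had 10713 of all 19938 genes. Those brighter genes varied more (median SD over the 14 samples 0.208, against 0.133 over all genes). Shares over probe sets of like level were not counted, here or below. The groups did not overlap for 10 of the 62 (16.1%), beside 13.5% of all.

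With sh74, limma called none of the list against shScramble, where 0.00918% of all probe sets were called, and by the methods' t-test 0 had an adjusted call. At an unadjusted p under 0.05 stood 4 of the 62 other genes (6.45%), beside 7.33% of all. The samples did not overlap for 14 of the 62 (22.6%), beside 22% of all. Over both hairpins together limma called 0 of the list, beside 0.0184% of all probe sets. The Maml1 difference there was 0.56, and 0.63 without sh74 replicate 2, a description because its group differences chose it. At an unadjusted p under 0.05 stood 7 of the 62 other genes (11.3%), beside 7.3% of all, and 3 of the 62 (4.84%) did not overlap, beside 3.93%. Between the hairpins 2 of the 62 other genes were called, Kat2b and Maml2, both higher with sh74, beside 0.174% of all. Eogt was called too, and nothing is read from that. At an unadjusted p under 0.05 stood 15 of the 62 (24.2%), beside 8.93%, and 20 of the 62 (32.3%) did not overlap, beside 22.5%.

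**Figure D5:**
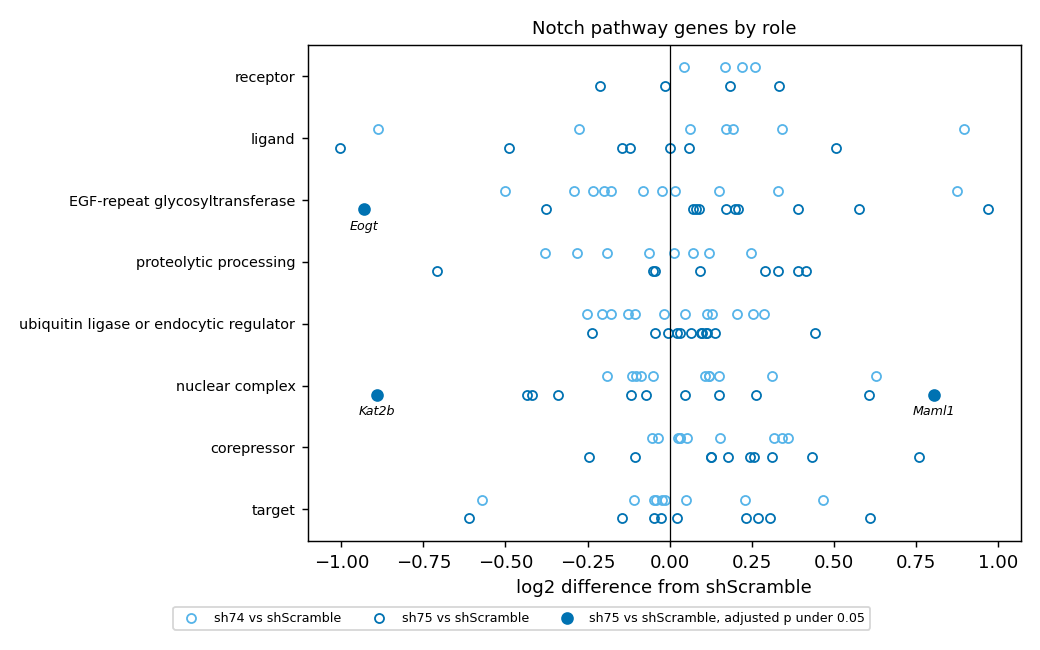
Log2 differences from shScramble of the 72 measured Notch pathway genes, by role, for sh74 (light) and sh75 (dark); each circle is a gene, and filled circles have an adjusted p under 0.05 in limma. With sh75 the filled circles are Maml1 (0.80), Eogt (-0.93) and Kat2b (-0.89), and with sh74 there are none. Nothing is read from the filled circles of Maml1 and Eogt, because their group differences chose them.

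With over-expression of CNOT7 the values of each of the 10 genes overlapped with those of vector control. Their differences ran from -0.17 for Jag1 to 0.19 for Notch2, 0 of 10 lacked overlap with vector control beside 7.72% of all probe sets, and limma called 0 of the 72 pathway genes and 0% of all, with 2 of the 72, Gxylt1 and Hdac2, at an unadjusted p under 0.05, beside 2.58% of all. The methods' t-test called 0 as well. The 95% intervals of the differences ran from -0.12 to 0.37 for Maml1 and from -1.21 to 0.87 for Jag1, so the wider of them do not exclude a change of 1 log2 unit. In the contrast that subtracts the knockdown change from the over-expression change, 0 genes of the list and 0% of all probe sets were called, and 5 of the 62 other genes (8.06%) stood at an unadjusted p under 0.05, beside 3.49% of all. The values of that contrast were -0.90 (SE 0.24) for Rfng, -0.43 (SE 0.15) for Maml1 and 0.37 (SE 0.19) for Eogt. They came mainly from the hairpin side, since over-expression changed Rfng by 0.02, Maml1 by 0.12 and Eogt by 0.07. Vector control cells also lay above shScramble, by 1.30 for Rfng and 0.32 for Maml1. For Eogt the hairpins stood on opposite sides of shScramble.

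The vector control and shScramble cells, which differ in vector and in drug selection, showed how far the controls lay apart. Rfng and Maml1 were higher and Hes1 lower in vector control cells without overlap, and for Rfng and Maml1 nothing is read from it because their group differences chose them. Of the 62 other pathway genes 8 (12.9%) did not overlap, beside 9.74% of all probe sets. Limma called 0 of the 72 genes and 0% of all, 2 of the 62 (3.23%) stood at an unadjusted p under 0.05 beside 3.7% of all, and the methods' t-test called 0. Vector and drug selection cannot be told apart in this comparison.

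The genes whose values followed each member most closely over the 14 samples were found among 10217 genes with a mean of at least 6, and are a description, since the samples share groups and epithelial state. Eogt followed Arl2bp (Pearson r = 0.95), Mob1b (0.95) and Rbm41 (0.94) and ran opposite to Fzd5 (-0.93) and Scamp2 (-0.90). Arl2bp, whose product binds the GTPase ARL2, was 9.40, 9.77 and 9.89 with sh75 and 10.35 to 11.24 elsewhere, and Fzd5, a Wnt receptor gene, was 7.47 to 7.87 with sh75 and 7.05 to 7.38 elsewhere. Maml1 followed Pald1 (0.91), Mapre2 (0.90) and Bcl9 (0.89), the last a coactivator of beta-catenin, and ran opposite to Ncbp3 (-0.94) and Arhgef1 (-0.88). Rfng followed Dusp19 (0.88), Zfp39 (0.84) and Afg1l (0.82) and ran opposite to Trpv3 (-0.87) and Wdr62 (-0.82).

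Of the other members, Notch2 was most like Twist1 (0.93), a transcription factor of the mesenchymal state that ran from 7.07 to 8.69. Of the other mesenchymal markers, Vim ran from 10.08 to 13.06 and Fn1 from 11.72 to 12.75. Zeb1 (5.24 to 5.57) varied little, and Snai2 (4.61 to 4.94) and Cdh2 (4.02 to 4.22) lay near or below the background limit. Jag1 was most like Nfkbid (0.92), Jag2 like Fabp5 (0.91), Hes1 like Stk38l (0.89), Notch3 like Pafah2 (0.87), Notch1 like Nek3 (0.85) and Lfng like Arsb (0.84). The share of variation that lay between groups was 89.5% for Eogt, 87.3% for Rfng and 84.6% for Maml1, the values that chose them. It was 62.9% for Hes1, 56.4% for Jag2, 42.9% for Lfng, 39.5% for Jag1, 28.4% for Notch3 and 25.9% for Notch2.

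Promoters of the members were searched for the core word of the RBPJ binding site, TGGGAA, and its reverse complement TTCCCA, since RBPJ is the DNA-binding part of the complex that Maml1 joins. RefSeq promoters of mouse assembly GRCm38.p6, 250 bases before to 50 after each start, were available for 8 of the 10 genes, not for Eogt and Hes1. The word stood in the promoter of 1 of those 8, Lfng, and in 25.6% of 32851 promoters in the table. The matches, in capitals, lay 135 and 108 bases before the start, in overlapping windows at chr5:140607194-140607223 and chr5:140607221-140607250. Both windows are printed on the strand of the gene, the plus strand. Site 1 reads TTCCCA there, so its TGGGAA lies on the other strand, whereas site 2 reads TGGGAA on the plus strand.
Lfng site 1: ccagctgggtggTTCCCAgccccttgtccg
Lfng site 2: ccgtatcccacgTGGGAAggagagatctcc
A match is no evidence that RBPJ binds there, and these letters were not found in the windows of Notch1, Notch2, Notch3, Jag1, Jag2, Rfng and Maml1.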

How the data were processed

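Total RNA was profiled on Affymetrix mouse gene arrays. The authors deposited log2 expression values that, per the submitters' processing notes, were made by RMA in oligo (versions not given in the sources used here). RMA equalizes array distributions and compresses small differences of dim probe sets. The values were used as deposited. Of 35556 probe sets, 21789 with exactly 1 gene symbol were tested, 1621 had several symbols and 12146 none. A gene with several probe sets was represented by that with the highest mean. The array build was not given in the sources used here, so no gene coordinates of it are printed.

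Groups came from the sample labels. Contrasts were fitted over all 14 samples in 5 groups with limma 3.58.1 in R 4.3.3 (lmFit, eBayes, 9 residual and 2.09 prior degrees of freedom), two-sided, with Benjamini-Hochberg adjustment over the 21789 probe sets. The script was tested on simulated data. The methods' t-test, run with equal variances and the same adjustment, was an alternative. Others were the groups compared alone, centering, repeated quantile normalization and a filter at the olfactory 90th percentile. All probe sets, a trended robust prior, array weights, a replicate block and leaving out each sample were also tried. Python 3.11.15, pandas 2.3.3 and numpy 2.4.6 prepared the tables. Arrays carry no read depth, so their number limits the precision.

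The members and gene lists were chosen with earlier results of these data known. The pathway list covered 8 roles, and 72 of its genes were analysed; the remaining ones are not reported here. Genes named were the members, Cnot7, each called list gene, up to 3 non-members a role with the smallest unadjusted p and a group mean of at least 6, the remaining receptors, ligands, Fringes, Mastermind and Hes or Hey genes by level, and the genes most like each member. The marker genes analysed were 6 epithelial, 6 mesenchymal, 4 immune, 4 endothelial, 4 fibroblast and 3 adipocyte genes. Sample means were 7.29 to 8.16 for mesenchymal, 5.41 to 5.98 for immune, 4.77 to 4.91 for endothelial, 4.72 to 5.35 for fibroblast and 5.42 to 5.58 for adipocyte markers.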

Additional observations from a re-analysis of the deposited data

Results flagged for a closer look

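The effects of the hairpins differed by a test of the difference itself for Kat2b and Maml2 (limma, sh74 against sh75, adjusted over all probe sets). Kat2b was 1.01 higher with sh74 (7.98 ± 0.09, SD, n = 2, against 6.96 ± 0.16, n = 3) and Maml2 0.97 higher (8.39 ± 0.01 against 7.43 ± 0.16). The Kat2b call was lost without sh74 replicate 1 (adjusted p = 0.0789), and the Maml2 call in each of the 5 fits that left out 1 hairpin sample (adjusted p from 0.0654 to 0.191). Both were lost in a fit of the hairpin groups alone (adjusted p = 0.271) and by the methods' t-test (adjusted p = 0.608). Eogt was 1.26 higher with sh74 than with sh75, at 9.88 ± 0.24 against 8.62 ± 0.16, which is a description because its differences between groups chose it. The groups of 2 or 3 samples were too small to look for single outlying samples.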

How the results depend on the processing

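The count of pathway genes called for sh75 against shScramble was 3 as reported, where 0.0918% of all probe sets were called. It was 0 in a fit of those groups alone, 5 with array weights, 0 by the methods' t-test and 0 to 2 when 1 sample was left out. It was 0 without sh75 replicate 1 or shScramble replicate 2, and 1 without sh75 replicate 2 or shScramble replicate 3. Of the 3, 2 were Maml1 and Eogt, and Eogt was 1 of the 3 between the hairpins. Their group differences chose them, so nothing is read from their part of any count here. The count in the other settings is given without the share of all probe sets called there. Between the hairpins it was 3, and 0 in those groups alone, 0 by the t-test and 1 to 2 with 1 sample left out, being 1 without either sh74 sample. For both hairpins against shScramble it was 0, and 0 to 1 with 1 sample left out. For vector control against shScramble it was 0, and 1 with array weights. Where 1 sh74 sample was left out, the other was assumed to vary like the remaining groups. Why the counts changed was not tested, and the fits with a sample left out or with the compared groups alone hold fewer samples. The other scalings, the filter on dim probe sets, the adjustment over all probe sets and the robust prior kept these counts within 1.5 times.

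Numbers in the title suffixes were tried as a replicate block, which gave 0 pathway calls both for sh75 against shScramble and between the hairpins. With it, the adjusted p was 0.262 for Cnot7 and 0.12 for Kat2b with sh75, and 0.106 for Kat2b and 0.216 for Maml2 between the hairpins. The labels do not say what the numbers mark. Replicates 2 and 3 of over-expression and of sh75 carried the same number, and whether such samples came from separate cultures is not stated. The correlation of deviations was -0.31 to 0.59 (median 0.09) over 13 pairs of the same number from different groups, with 5 over 0.1. Over 65 pairs of other numbers it was -0.55 to 0.55 (median -0.10), with 23 over 0.1. The ranges overlapped but the median was higher for the same number, so these values do not settle whether the numbers pair the samples. The block was kept as an alternative only.

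Over 1060 alternative values of the members' differences, 1046 stayed within the spread between replicates and 14 moved further (Notch2 6, Jag1 4, Maml1 4). Part of the 1060 could not move. The groups compared alone, the filter on dim probe sets, all probe sets and the robust prior leave a difference of group means unchanged. The count therefore overstates how steady the values were. Of the called ones 0 turned, but these were Maml1 and Eogt, whose group differences chose them, so nothing is read from it. The Maml1 difference with sh75 was 0.70 to 0.94 and that of Eogt -1.02 to -0.86 with 1 sample left out. Kat2b, Maml2 and Cnot7 were followed through the same alternatives, a choice made after seeing the data. Averaging the probe sets of a gene gave no new value because each member had 1. The t-test could not be run on the 2 contrasts of more than 2 groups.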
